A study of Mus musculus with 17 samples.

Results

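The messenger RNAs of 10 genes that mark the mural cells of brain vessels were followed across cortical microvessel libraries: 6 pericyte markers (Pdgfrb, Rgs5, Cspg4, Anpep, Notch3 and Vtn) and 4 smooth muscle markers (Acta2, Myh11, Tagln and Cnn1). They were chosen by name, as a list of known markers, from the 42687 genes of the deposited count table, and all 10 passed the filter on low counts. The study asked how NOX2, an enzyme that makes superoxide, bears on brain capillaries in mice that model Alzheimer's disease. Microvessels were pelleted from the cortex through dextran and their RNA was sequenced. The mice were 10 to 11 months old and were either wild type (WT) or carried the amyloid transgenes APP/PS1, written APP in the sample labels. All of them received a peptide at 10 mg/kg into the peritoneum every 2 days over 2 weeks, so no group was without injections.

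The label NOX2 was read as gp91-ds-tat, a peptide that inhibits NOX2, and the label SC as sgp91-ds-tat, the control peptide. This gave 5 libraries of WT mice with control peptide (WT SC), 5 of WT mice with inhibitor (WT NOX2), 2 of APP/PS1 mice with control peptide (APP SC) and 5 of APP/PS1 mice with inhibitor (APP NOX2). The labels do not say whether each library came from a separate mouse, so the p-values measure the spread between libraries. Replicate numbers only name the libraries. Total counts per library ranged from 7316503 to 17862965 with a median of 11342154. Markers of the labelled mix of endothelium, pericytes and astrocyte endfeet were present: 9 endothelial markers summed to 2717 to 4959 CPM (a gene's counts relative to the TMM-scaled library size), 6 astrocyte markers to 2952 to 5092 CPM and the 6 pericyte markers to 1055 to 1838 CPM. These sums do not tell endfeet from whole astrocytes. RNA of cells outside that mix was present as well, with 6 neuron markers summing to 2459 to 4150 CPM and 7 oligodendrocyte markers to 1579 to 2711 CPM. The 5 choroid plexus markers summed to 25.6 to 8030 CPM.

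Pericytes lie within the basement membrane of capillaries and are drawn to growing vessels by PDGF-B, which endothelial cells release and which the pericyte receptor encoded by Pdgfrb binds. Smooth muscle cells ring arterioles and set their width through an actin and myosin apparatus. The 2 cell types form a continuum along the vessel, and several pericyte markers, Pdgfrb, Rgs5, Cspg4 and Notch3 among them, are also found in smooth muscle, whereas the contractile genes are scarce in capillary pericytes. The contractile genes are classic targets of serum response factor and its partner myocardin, which act through a sequence named the CArG box.

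The RefSeq promoter table held 7 of the 10 markers, Pdgfrb, Myh11 and Tagln not being among them. Of these, Acta2 was the gene with matches to a CArG box in the 250 bases before its RefSeq start, and the matches are shown because Acta2 was one of the most variable markers. Each is given 5′ to 3′ on the coding strand, the minus strand of chromosome 19 in build GRCm38.p6, with 10 bases on each side and the match in capitals.
Acta2 distal (chr19:34255438-34255467): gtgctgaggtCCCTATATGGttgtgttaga
Acta2 proximal (chr19:34255388-34255417): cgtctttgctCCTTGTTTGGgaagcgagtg
The distal match lies 84 to 75 bases before the start and the proximal match 34 to 25 bases before it. GENCODE vM21 also has an Acta2 transcript that starts earlier, and 217 of the 250 bases are its 5′ untranslated region. Both matches have a C or G at 1 place in the A/T core. This relaxed form was searched on both strands after the strict form (CC, 6 bases that are A or T, then GG) had found 0 matches in any of the 7 promoters. The relaxed form occurs in 7.24% of all 32851 promoters of that length and the strict form in 1.47%. The other 6 promoters, Cnn1 included, held 0 relaxed matches. TGGGAA, the core bound by RBPJ, the nuclear partner of Notch receptors, occurred at 1 place in Acta2, where it overlaps the proximal CArG match, and at 1 place in Vtn, against 21.6% of all promoters. An E-box, CANNTG, occurred in Anpep, Cnn1, Vtn and Acta2, against 66.2% of all promoters. The 250 bases read for Anpep (chr7:79848211-79848460) lie wholly within the gene as GENCODE vM21 places it (chr7:79821803-79861059). Those read for Cspg4, Cnn1 and Vtn overlap the annotated starts of their genes. These matches describe the sequence and say nothing of binding.

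Pdgfrb encodes the PDGF receptor β (chr18:61045150-61085061, plus strand, GRCm38 as annotated in GENCODE vM21, as for all positions here). Pdgfrb stood at 164, 143, 164, 194 and 139 CPM in WT SC and at 173, 165, 164, 159 and 162 CPM in WT NOX2. It stood at 135 and 196 CPM in APP SC and at 133, 208, 121, 129 and 180 CPM in APP NOX2. All groups overlapped, and APP NOX2 held both the highest and the lowest library, with replicates 2 and 5 well above the other 3.

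Vtn encodes vitronectin, an adhesion protein of plasma and matrix that brain pericytes make (chr11:78499091-78502324, plus strand). Vtn was 306, 270.5, 269, 394 and 250 CPM in WT SC and 347, 357, 304, 275 and 309 CPM in WT NOX2. In the APP/PS1 mice it was 291 and 390.0 CPM with control peptide and 224.5, 384, 238, 233 and 405 CPM with inhibitor. The APP NOX2 libraries divided as they did for Pdgfrb: replicates 1, 3 and 4 were the lowest of all 17 libraries, and replicate 5 was the highest.

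Notch3 encodes the Notch receptor of mural cells (chr17:32120820-32166852, minus strand). Notch3 was 120.0, 105, 135, 175.5 and 118 CPM in WT SC and 154, 131, 140, 147 and 145 CPM in WT NOX2. It was 120.0 and 163 CPM in APP SC and 116, 179, 106, 120 and 185 CPM in APP NOX2, again with replicates 2 and 5 on top. An antisense gene, Gm17276, shares 488 exonic bases with Notch3. The strand setting of the counting is not given in the sources used here, but the 417 counts of Gm17276 in all libraries together were few beside those of Notch3.

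Cspg4 encodes the proteoglycan NG2, which oligodendrocyte precursors also carry (chr9:56865033-56899870, plus strand). Cspg4 was 110.5, 110.4, 112, 121 and 107 CPM in WT SC and 138.5, 93.8, 101, 106 and 126 CPM in WT NOX2. It was 95.5 and 142 CPM in APP SC and 76.8, 154, 84.0, 98.0 and 138 CPM in APP NOX2. The WT SC libraries kept within 107 to 121 CPM, inside the range of every other group.

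Rgs5 encodes a regulator that shortens signalling by G proteins (chr1:169655501-169695813, plus strand). Rgs5 was 603, 588, 762, 897 and 532 CPM in WT SC and 657, 877, 502, 732 and 662 CPM in WT NOX2. It was 716 and 702.5 CPM in APP SC and 844, 798, 480.3, 581 and 886 CPM in APP NOX2. Here APP NOX2 replicate 1 was among the higher libraries, whereas for Pdgfrb, Vtn, Cspg4 and Notch3 it was among the lower.

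Anpep encodes aminopeptidase N, a surface enzyme that pericytes share with some fibroblasts (chr7:79821803-79861059, minus strand). Anpep was 46.5, 23.1, 31.6, 41.8 and 25.2 CPM in WT SC and 38.1, 44.3, 30.5, 36.0 and 31.9 CPM in WT NOX2. It was 45.2 and 39.0 CPM in APP SC and 38.4, 45.8, 25.4, 26.9 and 43.7 CPM in APP NOX2. The lowest and the highest of the 17 libraries were both in WT SC.

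Acta2 encodes smooth muscle α-actin (chr19:34241090-34255590, minus strand). Acta2 was 57.6, 35.4, 68.9, 95.6 and 44.7 CPM in WT SC and 57.6, 96.4, 82.3, 116 and 58.2 CPM in WT NOX2. It was 63.6 and 82.8 CPM in APP SC and 101, 112, 53.0, 79.9 and 91.9 CPM in APP NOX2. Both libraries under 50 CPM were WT SC, and the 3 over 100 CPM had received the inhibitor, but every pair of groups overlapped.

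Myh11 encodes smooth muscle myosin heavy chain (chr16:14194535-14291372, minus strand). Myh11 was 90.8, 38.0, 72.5, 88.5 and 46.1 CPM in WT SC and 57.8, 107, 97.6, 96.4 and 61.5 CPM in WT NOX2. It was 83.9 and 69.8 CPM in APP SC and 128, 106, 51.4, 79.8 and 75.5 CPM in APP NOX2. WT SC replicates 2 and 5 were the lowest, as they were for Acta2.

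Tagln encodes transgelin, or SM22α, an actin-binding protein (chr9:45929619-45936058, minus strand). Tagln was 33.1, 18.2, 29.9, 48.9 and 23.5 CPM in WT SC and 28.4, 39.9, 57.8, 48.1 and 32.1 CPM in WT NOX2. It was 26.7 and 42.3 CPM in APP SC and 41.5, 61.2, 25.1, 47.0 and 48.2 CPM in APP NOX2. The groups overlapped, with APP NOX2 replicate 2 the highest and WT SC replicate 2 the lowest. Tagln shares 108 exonic bases with Pcsk7 and 1241 with an antisense gene, Gm48529, both on the opposite strand, so its reads and theirs could be confused if strand was not used in counting. Pcsk7 had 8410 counts in all libraries together, and Gm48529 was absent from the count table.

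Cnn1 encodes calponin, which binds actin and slows the myosin ATPase (chr9:22099216-22109630, plus strand). Cnn1 was 1.04, 1.15, 2.13, 1.25 and 0.732 CPM in WT SC and 1.496, 3.57, 1.80, 2.60 and 0.777 CPM in WT NOX2. It was 1.58 and 2.33 CPM in APP SC and 2.65, 2.88, 1.52, 2.63 and 1.39 CPM in APP NOX2. These values rest on 7 to 55 reads per library, so counting error adds to the spread between libraries.

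**Figure D1:**
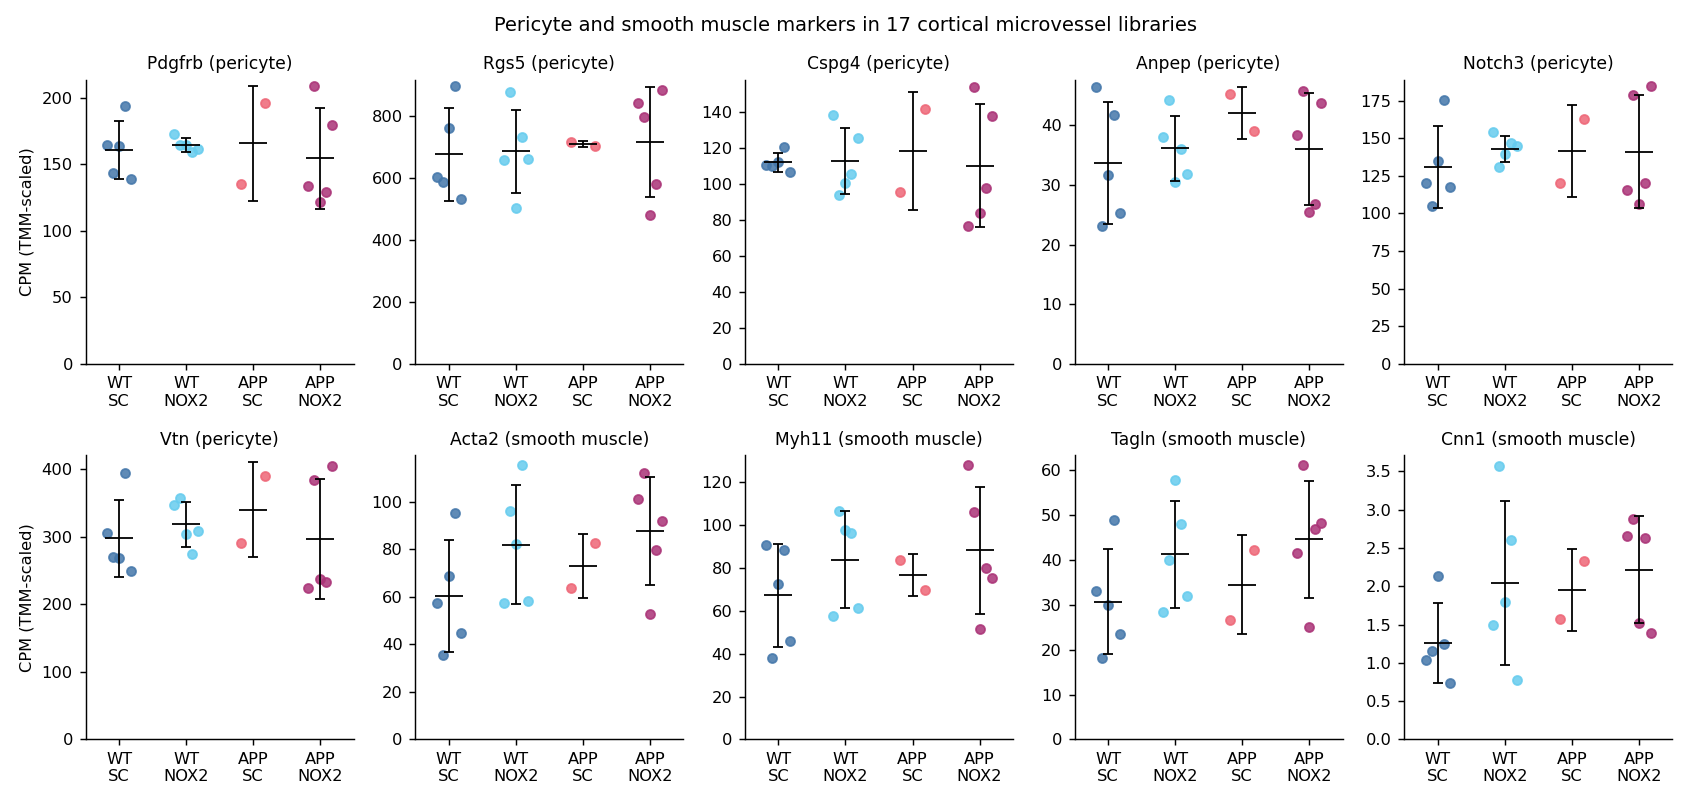
CPM (TMM-scaled, linear axes from 0) of each marker in each library, with 1 panel per gene and the 4 groups on the horizontal axis; points are libraries, horizontal lines are group means and bars are ± 1 SD. The groups overlap for every marker, and the APP NOX2 libraries split into 2 higher and 3 lower values for Pdgfrb, Vtn, Notch3 and Cspg4.

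Levels of different genes were compared per kilobase of exon. Rgs5 and Vtn were the most abundant, with medians of 154.5 and 149.7 CPM per kilobase over the 17 libraries. Acta2 followed at 36.4, Pdgfrb at 29.9, Tagln at 20.1, Notch3 at 16.6, Myh11 at 10.51, Cspg4 at 9.26, Anpep at 9.20 and Cnn1 at 0.576 CPM per kilobase. Neighbours in this order had overlapping ranges at all but 2 steps, from Vtn to Acta2 and from Anpep to Cnn1, where all 17 libraries kept the order. With the longest transcript as the length, Vtn and Rgs5 changed places, as did Myh11 and Cspg4.

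**Figure D2:**
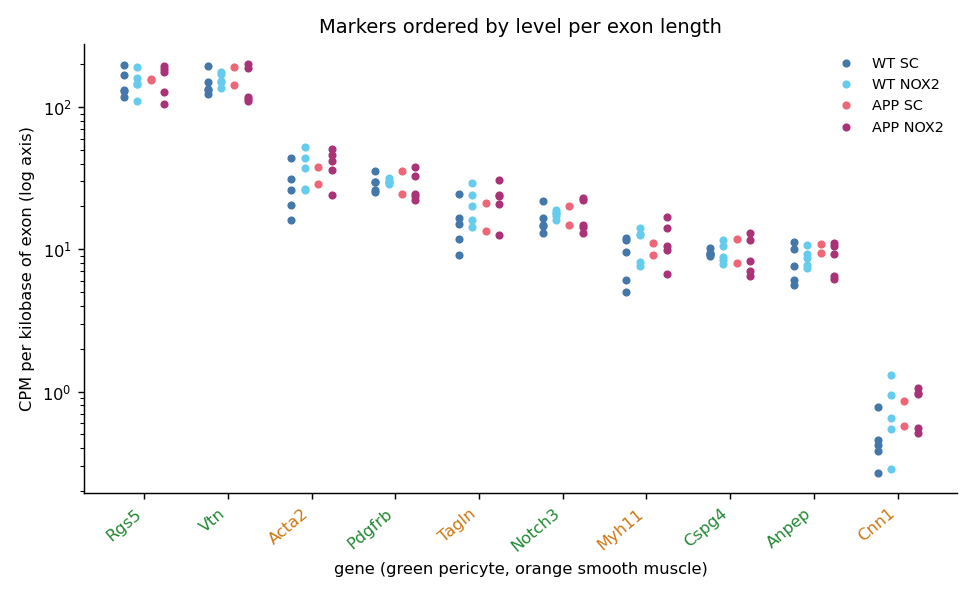
Level of each marker in CPM per kilobase of exon (log axis), with the genes ordered by their median over the 17 libraries; each point is a library and colours are groups. Rgs5 and Vtn stand above all other markers in every library, and Cnn1, with a median of 0.576, stands below them.

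The smooth muscle markers varied more between libraries than the pericyte markers. The highest library exceeded the lowest by 1.72-fold (Pdgfrb) to 2.02-fold (Anpep) among pericyte markers and by 3.27-fold (Acta2) to 4.87-fold (Cnn1) among smooth muscle markers. The coefficient of variation over all 17 libraries was 15.5% to 22.1% for pericyte markers and 30.3% to 43.8% for smooth muscle markers. Its median was 13.9% over the 13379 tested genes with a mean of 5 CPM or more, and Cnn1 lies under that level. In APP NOX2 replicate 2 all 4 smooth muscle markers were among the 3 highest libraries, and in WT SC replicate 5 all 4 were among the 3 lowest. In APP NOX2 replicate 3 all 6 pericyte markers and 3 of the smooth muscle markers were among the 3 lowest. The smooth muscle markers summed to 92.8 to 283 CPM, which was 7.48% to 19.3% of the pericyte sum. Rgs5, at 480 to 897 CPM, was the largest part of the pericyte sum (1055 to 1838 CPM) in every library, so that sum weighs Rgs5 most.

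The first comparison asked whether mural cell markers differ between APP/PS1 and WT microvessels. In these data they did not pass the test. Over both peptides, the log2 difference (APP/PS1 minus WT) was near 0 for the pericyte markers. It was -0.04 for Pdgfrb (95% interval -0.27 to 0.19), 0.01 for Vtn (-0.28 to 0.29), 0.01 for Cspg4 (-0.27 to 0.28), 0.03 for Notch3 (-0.23 to 0.29), 0.07 for Rgs5 (-0.23 to 0.36) and 0.12 for Anpep (-0.20 to 0.44). In fold terms, the interval for Pdgfrb ran from 0.829 to 1.14 and that for Anpep from 0.870 to 1.35. In RNA from whole microvessels, fewer cells of a type and less RNA per cell cannot be told apart.

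The 4 smooth muscle markers had estimates above 0 with wider intervals, that of Myh11 being no higher than that of Anpep. The log2 difference was 0.16 for Acta2 (-0.24 to 0.56), 0.12 for Myh11 (-0.29 to 0.53), 0.13 for Tagln (-0.28 to 0.54) and 0.30 for Cnn1 (-0.28 to 0.87). In edgeR (quasi-likelihood test, Benjamini-Hochberg adjustment over all genes), 0 of the 10 markers passed 0.05, with adjusted p from 0.952 to 0.9994, and 0 had an unadjusted p under 0.05. DESeq2 also called 0. Of all 18753 genes tested, 0.587% were called (110 genes) and 6.38% had an unadjusted p under 0.05. In 0 of the 10 markers did the genotypes not overlap, against 0.272% of all genes. The median log2 difference was 0.02 over the pericyte markers and 0.15 over the smooth muscle markers, beside 0.00171 over all genes. With 1 library left out, the pericyte median ran from -0.06 (without APP SC replicate 2) to 0.07 (without APP NOX2 replicate 3), and the smooth muscle median from 0.09 (without APP NOX2 replicate 2) to 0.24 (without APP NOX2 replicate 3).

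Within each peptide, too, no marker passed the test. With control peptide, the medians were 0.10 for pericyte markers and 0.23 for smooth muscle markers, 0 of 10 markers were called by edgeR against 0.0533% of all genes, and 0 had an unadjusted p under 0.05 against 3.97%. The groups did not overlap for 0 of 10 markers against 7.53% of all genes. Leaving out an APP SC library moved the pericyte median from 0.10 to 0.30 (without replicate 1) or to -0.08 (without replicate 2). The smooth muscle median ran from 0.09 (without WT SC replicate 2) to 0.46 (without APP SC replicate 1). With inhibitor, the medians were -0.03 and 0.11, and 0 of 10 markers were called against 0.181% of all genes. There, 0 had an unadjusted p under 0.05 against 3.38%, and 0 did not overlap against 0.784%. The pericyte median with inhibitor ran from -0.16 (without APP NOX2 replicate 2) to 0.06 (without APP NOX2 replicate 3), and the smooth muscle median from -0.01 (without WT NOX2 replicate 5) to 0.23 (without APP NOX2 replicate 3).

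The second comparison asked whether the markers respond to the NOX2 inhibitor. The smooth muscle markers had higher mean levels with inhibitor in both genotypes, but none of them passed the test, and the pericyte markers had estimates near 0. In WT mice, mean Acta2 was 60.4 CPM ± 23.4 (SD, n = 5) with control peptide and 82.0 CPM ± 25.0 (SD, n = 5) with inhibitor. Mean Tagln was 30.7 CPM ± 11.7 (SD, n = 5) and 41.3 CPM ± 11.95 (SD, n = 5), and mean Myh11 was 67.2 CPM ± 24.2 (SD, n = 5) and 84.0 CPM ± 22.6 (SD, n = 5). Mean Cnn1 was 1.26 CPM ± 0.525 (SD, n = 5) and 2.05 CPM ± 1.07 (SD, n = 5).

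Over both genotypes, the log2 difference (inhibitor minus control peptide) was 0.37 for Acta2 (95% interval -0.03 to 0.78), 0.40 for Tagln (-0.01 to 0.82), 0.51 for Cnn1 (-0.08 to 1.10) and 0.28 for Myh11 (-0.14 to 0.69). The 6 pericyte markers ranged from -0.03 (Cspg4) to 0.08 (Notch3), with a Pdgfrb interval of -0.24 to 0.21. The medians were 0.39 for smooth muscle markers and -0.01 for pericyte markers, beside 0.00376 over all genes. The pericyte median ran from -0.05 (without APP NOX2 replicate 2) to 0.07 (without APP SC replicate 2). The quasi-likelihood test of edgeR, adjusted in the same way, called 0 of the 10 markers and 0% of all genes (0 of 18753). All 10 had an adjusted p of 0.9999. The unadjusted p was 0.057 for Tagln, 0.0682 for Acta2, 0.0888 for Cnn1 and 0.181 for Myh11, so 0 markers were under 0.05, against 2.11% of all genes, and DESeq2 called 0 markers and 0 genes. In 0 of 10 markers did the groups not overlap, against 0% of all genes. The smooth muscle genes varied together between libraries, so their 4 estimates do not count as 4 separate observations.

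In WT mice alone, the log2 differences were 0.44 for Acta2 (-0.08 to 0.96), 0.42 for Tagln (-0.12 to 0.96), 0.71 for Cnn1 (-0.07 to 1.49) and 0.32 for Myh11 (-0.22 to 0.85), and the pericyte median was 0.06. In APP/PS1 mice they were 0.26 for Acta2 (-0.43 to 0.96), 0.38 for Tagln (-0.34 to 1.09), 0.21 for Cnn1 (-0.74 to 1.16) and 0.20 for Myh11 (-0.51 to 0.91), and the pericyte median was -0.10. By edgeR 0 of 10 markers were called in either genotype, against 0% of all genes in each, and 0 had an unadjusted p under 0.05 against 1.34% of all genes in WT and 1.8% in APP/PS1. The groups did not overlap for 0 of 10 markers, against 0.224% of genes in WT and 4.63% in APP/PS1. The smooth muscle median was most affected by WT SC replicate 4 in WT mice, where it was 0.66 without that library, and by APP SC in APP/PS1 mice, where it was 0.08 without replicate 1 and 0.48 without replicate 2. WT SC replicate 4 held the highest smooth muscle sum of its group. The pericyte median ran from -0.001 (without WT SC replicate 2) to 0.17 (without WT SC replicate 4) in WT mice, and from -0.28 (without APP SC replicate 1) to 0.11 (without APP SC replicate 2) in APP/PS1 mice.

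**Figure D3:**
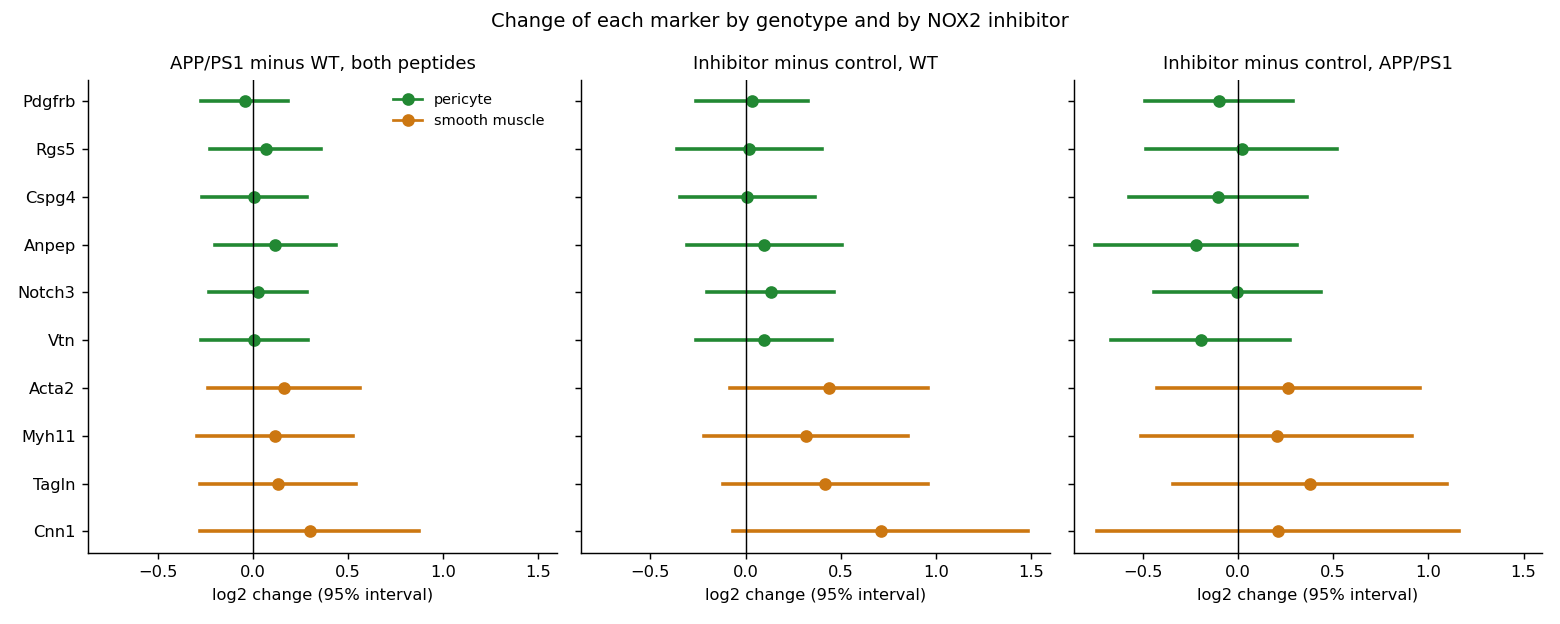
Log2 change of each marker with its 95% interval, from left to right for APP/PS1 minus WT over both peptides, inhibitor minus control peptide in WT, and inhibitor minus control peptide in APP/PS1; green marks pericyte genes and orange smooth muscle genes. Every interval includes 0, and the intervals of the smooth muscle genes are wider.

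The third comparison asked whether the response to the inhibitor differs between the genotypes. The interaction, the inhibitor difference in APP/PS1 minus that in WT, was below 0 for all 10 markers, from -0.50 for Cnn1 (95% interval -1.72 to 0.72) to -0.003 for Rgs5 (-0.63 to 0.63). Its medians were -0.13 for pericyte and -0.15 for smooth muscle markers, beside -0.00316 over all genes. By edgeR's quasi-likelihood test 0 of 10 markers were called, against 0% of all genes, and 0 had an unadjusted p under 0.05, against 0.843%. The pericyte median was -0.36 without APP SC replicate 1 and 0.04 without APP SC replicate 2. It was above 0 in 1 of 21 other settings, the one without APP SC replicate 2, so its direction depended on that library. The smooth muscle median ran from -0.35 (without APP SC replicate 1) to -0.001 (without WT SC replicate 2). All 9 endothelial markers and all 7 fibroblast markers also had an interaction below 0, with medians of -0.10 and -0.32 and 0 called; their part in the values of the mural markers was not tested.

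Across the 17 libraries the markers of each class varied together. For log2 CPM, the median Pearson r was 0.75 over the 6 smooth muscle pairs (0.55 to 0.91), 0.66 over the 15 pericyte pairs (0.26 to 0.90) and 0.38 over the 24 mixed pairs (-0.16 to 0.70). With two-sided permutation tests and Benjamini-Hochberg adjustment over all 45 pairs, 6 of 6 smooth muscle pairs, 11 of 15 pericyte pairs and 7 of 24 mixed pairs had an adjusted p under 0.05 by Pearson's r. By Spearman's rho these were 5 of 6, 8 of 15 and 3 of 24. On deviations from group means the medians were 0.69, 0.65 and 0.42, and without the 2 libraries farthest from the median of the first gene of a pair they were 0.64, 0.64 and 0.31. All genes of a pair come from the same libraries and share their depth and composition.

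Acta2 and Tagln had the highest correlation (r = 0.91, Spearman's rho = 0.82, permutation p = 1e-05 and 0.00012, adjusted p = 0.000112 and 0.00135, r = 0.84 without the 2 farthest libraries). The p of 1e-05 is the smallest that 100000 resamples can give. Pdgfrb and Vtn followed (r = 0.90, rho = 0.91, permutation p = 1e-05 for each, adjusted p = 0.000112 and 0.00045, r = 0.89 without the 2 farthest). Pericyte markers were not a single block. Pdgfrb, Vtn, Notch3 and Cspg4 correlated with each other at 0.77 to 0.90, whereas Rgs5 and Cspg4 did so at 0.26 (rho = 0.24, permutation p = 0.32 and 0.362, adjusted p = 0.389 and 0.424, r = 0.03 without the 2 farthest). Rgs5 and Anpep correlated at 0.72 (rho = 0.64, permutation p = 0.00133 and 0.0067, adjusted p = 0.00544 and 0.0215, r = 0.67 without the 2 farthest). The mixed pair with the highest r was Anpep and Myh11, at 0.70 (rho = 0.61, permutation p = 0.00209 and 0.011, adjusted p = 0.00784 and 0.0308), and r was 0.48 without the 2 farthest libraries. Rgs5 had its highest rho with a smooth muscle marker, Acta2 (r = 0.65, rho = 0.72, permutation p = 0.00514 and 0.00158, adjusted p = 0.0147 and 0.0079, r = 0.76 without the 2 farthest).

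**Figure D4:**
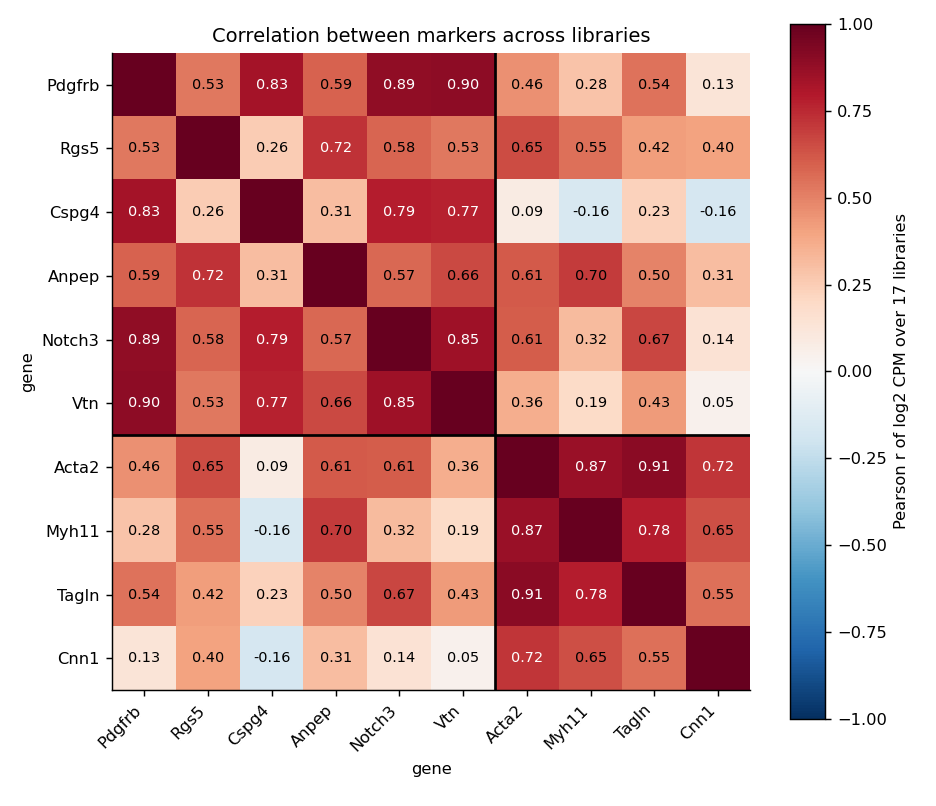
Pearson r of log2 CPM over the 17 libraries for each pair of markers (colour scale from -1 to 1, values printed in the cells); black lines separate the pericyte genes from the smooth muscle genes. Within-class blocks have the higher medians (0.75 for smooth muscle and 0.66 for pericyte pairs, 0.38 for mixed pairs), with a highest value of 0.91 for Acta2 and Tagln. The blocks overlap: mixed pairs reach 0.70 and pericyte pairs go down to 0.26. Cspg4 has values near or below 0 with Acta2, Myh11 and Cnn1.

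Markers of neighbouring cell types were summed in each library and set beside the mural markers, 40 relations in all. The endothelial sum moved with the pericyte markers, with a median r of 0.79 (0.50 to 0.90) and an adjusted permutation p under 0.05 for 5 of 6, all but Rgs5, by Pearson's r and for 4 of 6 by Spearman's rho, which left out Cspg4 too. With the 4 smooth muscle markers the median r was 0.45 (0.07 to 0.55), and 0 of 4 passed by r. By rho Tagln passed (r = 0.55, rho = 0.62, permutation p = 0.0235 and 0.00947, adjusted p = 0.0671 and 0.0379, r = 0.71 without the 2 farthest libraries). Vtn had the highest value (r = 0.90, rho = 0.87, permutation p = 1e-05 and 4e-05, adjusted p = 0.0004 and 0.000667, r = 0.86 without the 2 farthest libraries, 0.89 on group deviations). As a share of the endothelial sum, the pericyte sum was close between groups, with medians of 37.8% in WT SC, 38.7% in WT NOX2, 38.0% in APP SC and 37.7% in APP NOX2, and a range of 28.8% to 47.2% over libraries.

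The fibroblast sum, from 7 genes of collagen-making perivascular and meningeal cells, moved with both classes. Its median r was 0.72 with pericyte markers, of which 5 of 6 passed by r and 4 of 6 by rho, and 0.78 with smooth muscle markers, of which 3 of 4 passed by r and 2 of 4 by rho. Tagln had r = 0.86 with it (rho = 0.85, permutation p = 3e-05 and 5e-05, adjusted p = 0.0004 and 0.000667, r = 0.81 without the 2 farthest libraries) and Acta2 had r = 0.85 (rho = 0.77, permutation p = 3e-05 and 0.00055, adjusted p = 0.0004 and 0.00314, r = 0.80 without the 2 farthest). Like the smooth muscle markers, all 7 fibroblast markers had a higher estimate with inhibitor in WT mice (median log2 difference 0.27, 0 called), but in APP/PS1 mice 1 of 7 did (median -0.09, 0 called), where all 4 smooth muscle markers did. The part of fibroblast RNA in the smooth muscle values was not tested. Pdgfra is in both the fibroblast list and the oligodendrocyte precursor list, so those sums share a gene. The sums of oligodendrocyte precursor markers and of choroid plexus markers each gave 0 of 10 relations with an adjusted p under 0.05 by r or by rho. That held for Cspg4, whose product precursors share (r = 0.23 with their sum, rho = 0.21, permutation p = 0.385 and 0.427, adjusted p = 0.592 and 0.604, r = 0.35 without the 2 farthest libraries).

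**Figure D5:**
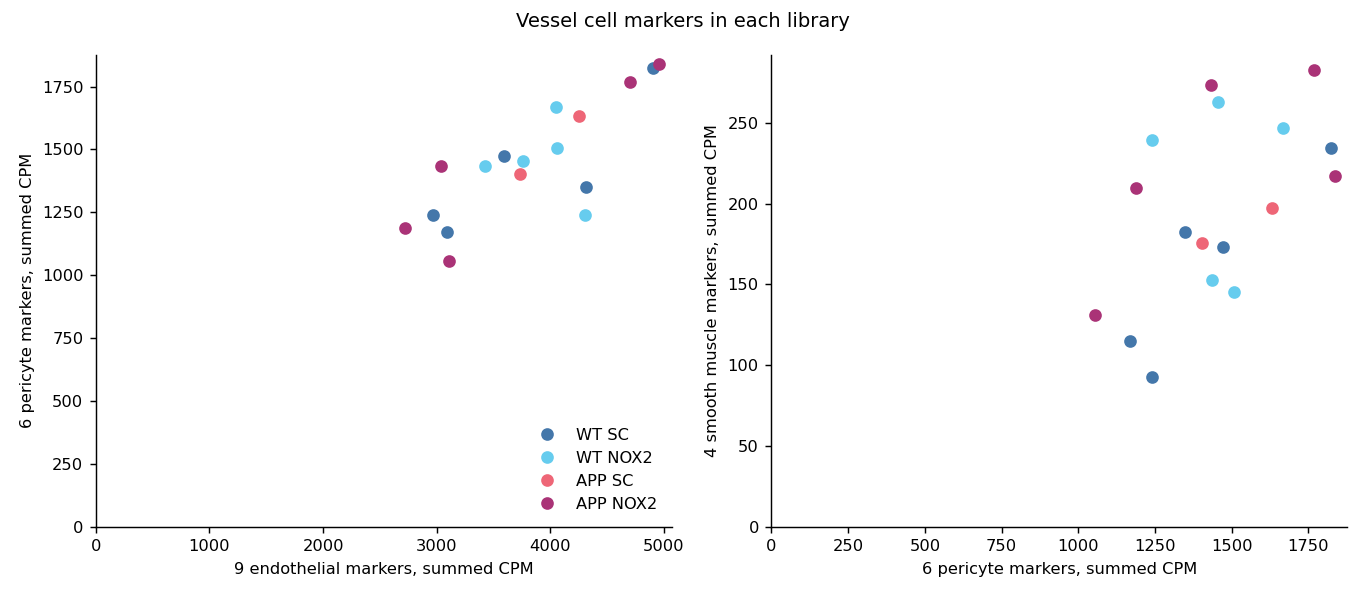
Summed CPM of the 6 pericyte markers against that of the 9 endothelial markers (left) and of the 4 smooth muscle markers against that of the 6 pericyte markers (right), both on linear axes from 0; each point is a library and colours are groups. Pericyte and endothelial sums follow each other, while smooth muscle sums at a like pericyte sum range widely, as between 145 and 263 CPM in WT NOX2.

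The highest values of the smooth muscle sum relative to the pericyte sum were in libraries with inhibitor. Other libraries with inhibitor lay within the range of the libraries with control peptide. The smooth muscle sum as a percent of the pericyte sum was 7.48%, 9.83%, 11.8%, 12.8% and 13.5% in WT SC and 9.64%, 10.6%, 14.8%, 18.1% and 19.3% in WT NOX2, each sorted. It was 12.1% and 12.5% in APP SC and 11.8%, 12.4%, 15.98%, 17.6% and 19.1% in APP NOX2. The groups overlapped, and this percent was given no test because it is a score over the chosen genes. Within the contractile pair, Acta2 as a percent of Myh11 had medians of 94.96%, 94.6%, 97.2% and 103% in the order WT SC, WT NOX2, APP SC and APP NOX2, with a range of 63.4% to 122% over libraries.

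Among all tested genes, those whose log2 CPM followed the mean of the smooth muscle markers most closely over the 17 libraries were Palld (r = 0.94), which encodes the actin-bundling protein palladin, Sp110 (0.88), which has close copies in the mouse genome that make its counts uncertain, Col1a1 (0.88), Col1a2 (0.85) and Ogn (0.84). The last 3 encode extracellular matrix proteins made by fibroblasts, and Col1a1 and Col1a2 are in the fibroblast list. Those closest to the mean of the pericyte markers were C130074G19Rik (0.94), Anxa5 (0.94, annexin A5), Wwtr1 (0.93, the Hippo pathway coactivator TAZ), Egflam (0.93, pikachurin, a matrix protein) and Ctnna1 (0.92, α-catenin). These correlations describe the libraries and rank genes that share library depth and composition. Median r with the smooth muscle mean was 0.50 over 24 other contractile genes, 0.29 over 19 other pericyte genes, 0.77 over the 7 fibroblast markers and 0.35 over the 9 endothelial markers. With the pericyte mean it was 0.65 over the other pericyte genes, 0.39 over the other contractile genes, 0.71 over the fibroblast markers and 0.80 over the endothelial markers.

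Other genes of the same cells were read from 3 lists. Of 19 other pericyte genes, 0 were called in any comparison by edgeR, against 0% to 0.587% of all genes. For genotype over both peptides 0 had an unadjusted p under 0.05, against 6.38% of all genes, and the median log2 difference was -0.02 (-0.28 to 0.28). Abcc9, a subunit of the pericyte potassium channel, had group means of 114, 109, 118 and 105 CPM in WT SC, WT NOX2, APP SC and APP NOX2. Atp13a5, an ATPase confined in the brain largely to pericytes, had 101, 104, 107 and 101 CPM. The 3 with the smallest unadjusted p for genotype were P2ry14, a receptor for UDP-sugars (log2 difference 0.28, adjusted p = 0.864), Ifitm1, an interferon-induced membrane protein (-0.28, adjusted p = 0.945) and Art3, an ADP-ribosyltransferase relative (0.15, adjusted p = 0.964), by edgeR's quasi-likelihood test. P2ry14 ranged from 7.74 to 16.9 CPM in WT and from 10.3 to 19.8 CPM in APP/PS1, so the genotypes overlapped.

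Of 25 other contractile genes, 24 were tested, Actg2 being too low, with a maximum of 0.78 CPM, and 0 were called in any comparison, against 0% to 0.587% of all genes. For genotype over both peptides their median was 0.04 (-0.16 to 0.28), and 0 had an unadjusted p under 0.05, against 6.38%. The 3 with the smallest p were Itga8, an integrin of contractile cells (-0.16, edgeR adjusted p = 0.856), Pln, a brake on the calcium pump of the sarcoplasmic reticulum (0.28, adjusted p = 0.889) and Smtn, smoothelin (0.16, adjusted p = 0.941). Smtn ranged from 40.5 to 70.1 CPM in WT and from 47.5 to 74.5 CPM in APP/PS1. With inhibitor over both genotypes, 19 of the 24 had a positive estimate, but the median was 0.05, beside 0.39 for the 4 smooth muscle markers. Des, the intermediate filament desmin, which is in both lists, was the single gene of the list under an unadjusted p of 0.05 there, where 2.11% of all genes were. Its log2 difference was 0.31 ± 0.14 (SE), with an adjusted p of 1.00 in the edgeR fit across all genes. The regulators of the contractile genes had like means in the 4 groups: Srf, serum response factor, was 34.5, 35.4, 36.4 and 36.5 CPM and Myocd, myocardin, was 3.81, 3.62, 3.97 and 3.68 CPM in WT SC, WT NOX2, APP SC and APP NOX2.

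Of 27 genes that recruit mural cells or signal to them, 1 was called for genotype over both peptides, where 0.587% of all genes were: Tgfbr1, the type I receptor for TGF-β, was higher in APP/PS1. In that comparison 3 of the 27, Tgfbr1, Pdgfrl and Pdgfc, had an unadjusted p under 0.05 by edgeR, against 6.38% of all genes. Tgfbr1 ranged from 41.0 to 63.7 CPM (median 51.9, n = 10 libraries) in WT and from 64.7 to 77.4 CPM (median 70.4, n = 7 libraries) in APP/PS1, so the genotypes did not overlap, as for 0.272% of all genes. Its log2 difference was 0.46 ± 0.09 (SE), with an adjusted p of 0.0142 in edgeR. Within a peptide Tgfbr1 was not called, with an edgeR adjusted p of 0.452 with control peptide and 0.453 with inhibitor. Over both peptides the adjusted p was 0.0716 without APP SC replicate 1 and 0.0597 without APP SC replicate 2, and 0.000587 to 0.0393 in the other settings tried. Microglia also carry this receptor. Of 6 microglia markers, 4 were called higher in APP/PS1 over both peptides, against 0.587% of all genes called in either direction (median log2 difference 0.67). Within a peptide 0 of the 6 were called, against 0.0533% of all genes with control peptide and 0.181% with inhibitor. An unadjusted p under 0.05 by edgeR was seen for 5 with control peptide and 4 with inhibitor, against 3.97% and 3.38% of all genes. The microglia sum was 171 to 238 CPM in WT and 205 to 385 CPM in APP/PS1. The part of microglia in the Tgfbr1 difference was not tested.

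The ligands and receptors that join endothelium and mural cells were otherwise not called. Pdgfb, the ligand of the Pdgfrb product, had means of 81.8, 83.5, 89.5 and 90.1 CPM in WT SC, WT NOX2, APP SC and APP NOX2. Jag1, a Notch ligand of endothelium, had 79.8, 90.6, 87.4 and 84.8 CPM, and Heyl, a Notch target of mural cells, had 25.1, 22.4, 21.3 and 20.6 CPM. Pdgfrl, which resembles a PDGF receptor without a kinase, had the largest estimate of the list (log2 difference 0.59, edgeR adjusted p = 0.59) at 0.523 to 4.06 CPM. Pdgfc, a further PDGF ligand, had an estimate of -0.25 (edgeR adjusted p = 0.622), with 8.44 to 14.2 CPM in WT and 9.03 to 11.4 CPM in APP/PS1. The median of the list was 0.03.

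Among the markers of other cells, for genotype over both peptides, 1 of 6 astrocyte markers was called higher by edgeR, against 0.587% of all genes called in either direction. Of these 6, 2 had an unadjusted p under 0.05 by edgeR, against 6.38% of all genes. With inhibitor, 1 of the 6 was called higher, against 0.181% of all genes, and with control peptide 0 were, against 0.0533%. Over both peptides, none of the 9 endothelial (median 0.01), 7 fibroblast (0.17), 9 oligodendrocyte precursor (0.17), 7 oligodendrocyte (0.12), 6 neuron (0.02), 5 choroid plexus (-0.56) or 3 tested erythroid markers (0.68) was called. Of these, 1 of the 7 oligodendrocyte markers was under an unadjusted p of 0.05 by edgeR, against 6.38% of all genes. None of these lists held a called gene for the inhibitor over both genotypes, where 0% of all genes were called. Choroid plexus sums ranged from 25.6 to 8030.0 CPM over libraries, and in 0 of the 10 mural markers did the level follow that sum with an adjusted p under 0.05.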

How the data were processed

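The authors deposited raw counts per Ensembl gene, and the submitters' processing notes name cutadapt, STAR, HTSeq and DESeq2 and the builds GRCh37 and mm10, with no versions or settings. The counts were taken from the 17 columns whose names match a sample title, and 20 further columns of values were not used. Symbols and exon lengths came from GENCODE vM21 (42250 of 42687 IDs had a symbol and 42329 a length), and promoters from RefSeq (GRCm38.p6). All 136 pairs of libraries were compared and 0 were identical.

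In edgeR 4.0.16 (R 4.3.3), filterByExpr kept 18753 genes, counts were scaled by TMM (factors 0.894 to 1.09), and all 17 libraries entered quasi-likelihood F tests with Benjamini-Hochberg adjustment over all genes and a threshold of 0.05. The simple comparisons and the interaction came from group means, and the others from an additive model of genotype and peptide. CPM values use the TMM-scaled totals, and correlations used log2 CPM with a prior count of 2. The fit was checked on simulated data in which genes were drawn independently. That check does not show how small a change of these markers could be called. Alternatives were DESeq2 size factors, upper-quartile scaling, no filter, DESeq2 1.42.0, fits of the compared groups alone and each library left out.

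The markers and the lists (other pericyte genes, other contractile genes, mural recruitment and signalling, and markers of endothelium, fibroblasts, oligodendrocyte precursors, oligodendrocytes, astrocytes, neurons, microglia, choroid plexus and erythroid cells) were chosen with earlier results of these data known. Genes named are the 10 markers, from each of the first 3 lists any gene called and the 3 with the smallest p for genotype over both peptides, and the 5 genes closest to each class mean. Abcc9, Atp13a5, Des, Srf, Myocd, Pdgfb, Jag1 and Heyl were named after their values were seen. Correlations were tested with 100000 permutations, two-sided. Depth was 7316503 to 17862965 counts per library.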

Additional observations from a re-analysis of the deposited data

How the results depend on the processing

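In every setting run, 0 of the 10 markers were called in any comparison. Over 192 pericyte and 128 smooth muscle estimates under other scalings, filters, tests and sample choices, 11 and 0 changed sign, with lowest adjusted p of 0.86 and 0.814. Over 510 and 340 estimates with 1 library left out, 99 and 21 changed sign, with lowest adjusted p of 0.774 and 0.556. Estimates that were not called were treated as having no direction. For the inhibitor over both genotypes the smooth muscle median stayed above 0, from 0.30 (without WT SC replicate 2) to 0.50 (without WT SC replicate 4). The counts of all genes called depended more on the method: DESeq2's Wald test called 176 genes for genotype over both peptides (110 with edgeR), 44 with control peptide (10) and 61 with inhibitor (34). With each library left out in turn, these counts were 70 to 125, 4 to 17 and 15 to 38. The first moved by over 1.5 times without APP SC replicate 2 (70). The second did so without APP SC replicate 2 (4), APP SC replicate 1 or WT SC replicate 3 (6 each) and WT SC replicate 4 (17). The third did so without APP NOX2 replicate 2 or WT NOX2 replicate 5 (15 each), APP NOX2 replicate 4 (17), WT NOX2 replicate 3 (19) and WT NOX2 replicate 1 (21). The cause was not tested. No paired analysis was possible because the replicate numbers follow the order of the samples and pair no libraries. The 2 libraries of APP SC limit every comparison with that group, and Cnn1, with 7 to 55 reads per library, has the widest intervals.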

Other observations

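The mural and endothelial sums parted in a few libraries. APP NOX2 replicate 1 had the highest pericyte sum relative to the endothelial sum (47.2%) and a high smooth muscle sum (273 CPM), with the lowest Cspg4 (76.8 CPM) and Vtn (224.5 CPM) of all 17 libraries. Rgs5 made up 844 of the 1433 CPM of its pericyte sum, and 4 of its 6 pericyte markers were among the 3 lowest libraries. The endothelial sum of that library was 3039 CPM, within a range of 2717 to 4959 CPM over all libraries. The ratio was not computed for each pericyte marker. WT NOX2 replicate 3 had the lowest pericyte sum relative to the endothelial sum (28.8%) and the highest smooth muscle sum relative to the pericyte sum (19.3%). Rgs5 was 502 of the 1241 CPM of that pericyte sum, and 1 of the 6 pericyte markers was among the 3 lowest libraries there. In APP NOX2 the endothelial sums of replicates 2 and 5 were 4699 and 4959 CPM, and those of replicates 1, 3 and 4 were 3039, 3109 and 2717 CPM, the same division as for Pdgfrb, Vtn, Notch3 and Cspg4.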
